A study of Danio rerio with 6 samples.

Results

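The genes that hold epithelial sheets together were measured in the eyes of zebrafish embryos exposed to retinoic acid (RA), a vitamin A derivative that acts through nuclear receptors, or to the carrier DMSO alone. They are the genes whose single symbol in the array's annotation begins as a keratin, claudin, occludin, tight junction protein (tjp), numbered cadherin, desmosomal or cornified envelope protein (dsc, dsp, pkp, evpl, ppl), annexin, connexin (gj) or epcam. The rule also excluded vascular cadherin, cdh5, for which no probe set with that single symbol was measured. The rule found 88 genes of the 8793 with a symbol of their own on the array. They are 15 keratins, 24 claudins, 4 occludin and tjp genes, 8 cadherins, 8 genes of desmosomes and the cornified envelope, 14 annexins, 13 connexins, epcam, and krtcap2, which shares the letters krt but encodes no keratin. Where several probe sets name a gene, the values are those of the brightest.

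Epithelial cells are tied to each other by a set of junctions, each with its own proteins. Tight junctions seal the space between cells with strands of claudins and occludin, anchored inside by tjp scaffolds. Adherens junctions join cells through cadherins, and desmosomes join the keratin filaments of neighbouring cells through desmocollins, plakophilins and desmoplakin. Gap junctions, built of connexins, let small molecules pass from cell to cell. Annexins bind membrane phospholipids when calcium is present. In the eye such sheets include the surface ectoderm and corneal epithelium, the lens epithelium and the retinal pigment epithelium, while neural cadherins and some connexins serve the retina itself.

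Embryos of an outbred wild-type line, SciH, came from 3 clutches, each from its own parents. The sample titles carry the numbers 1, 3 and 4, which are taken here as the clutch. Part of every clutch was kept in 0.3 µM all-trans RA and part in 0.1% DMSO from 48 to 75 hours post fertilization (hpf). Frozen embryos gave pools of 64 dissected eyes, and amplified RNA of each pool went on its own Affymetrix Zebrafish Genome Array, 3 for DMSO and 3 for RA. A pool mixes all cells of the dissected eye and whatever skin or muscle came with it. Signals are linear and scaled to a common trimmed mean. Background was set at 13.2, the highest signal of control probe sets with no target, which 67.1% to 69.8% of the probe sets on an array exceeded. Markers of neural retina were above background in 12 of 12 measured genes. RNA quality, read from the ratio of 3' to 5' signal of acta1, ranged over 12.0 to 64.5 for DMSO, highest for clutch 1, and over 5.30 to 11.7 for RA. The same ratio of gapdh spread far less, over 1.48 to 2.58 for DMSO and 1.32 to 1.75 for RA. Of 7 skeletal muscle markers, the parvalbumin genes pvalb1 and pvalb2 were called lower in RA, and 3 overlapped. Without passing, tnnt3b had all RA pools lower and myog all RA pools higher. The myog DMSO pool of clutch 1 was at background, at 9.17. The summed signal of the 7 markers was 3170.1 to 3987 in DMSO and 2275 to 2798 in RA. Of 3 lens markers, cryaa was called higher, while crybb1 and bfsp2 had log2 fold changes of 0.0032 and 0.042. The parts of RNA quality, muscle and lens in the results below were not tested.

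None of the 88 genes passed the test for a difference between RA and DMSO eyes at a false discovery rate (FDR) of 10%, with limma fitted over all 15555 probe sets. The background shares are small as well, since 0.705% of all genes passed higher in RA and 0.262% passed lower. At an unadjusted p under 0.05 there were 6 genes higher (6.82%, against 4.37% of all genes) and 4 lower (4.55%, against 5.29%). These counts include krt93 and gja10b (higher) and cldna (lower), which were at background on all 6 arrays. Among the 58 members above background on all arrays of at least 1 group, all 3 RA pools lay above all 3 DMSO pools in 5 (8.62%, against 7.68% of all such genes) and below them in 8 (13.8%, against 11.1%). These shares are near those of the whole array. The median log2 fold change, RA minus DMSO, was 0.060 over the 88 genes and -0.023 over all genes, and per clutch it was 0.12, -0.082 and 0.089 for clutches 1, 3 and 4. In whole-eye RNA, fewer cells of a type and less RNA per cell cannot be told apart.

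**Figure D1:**
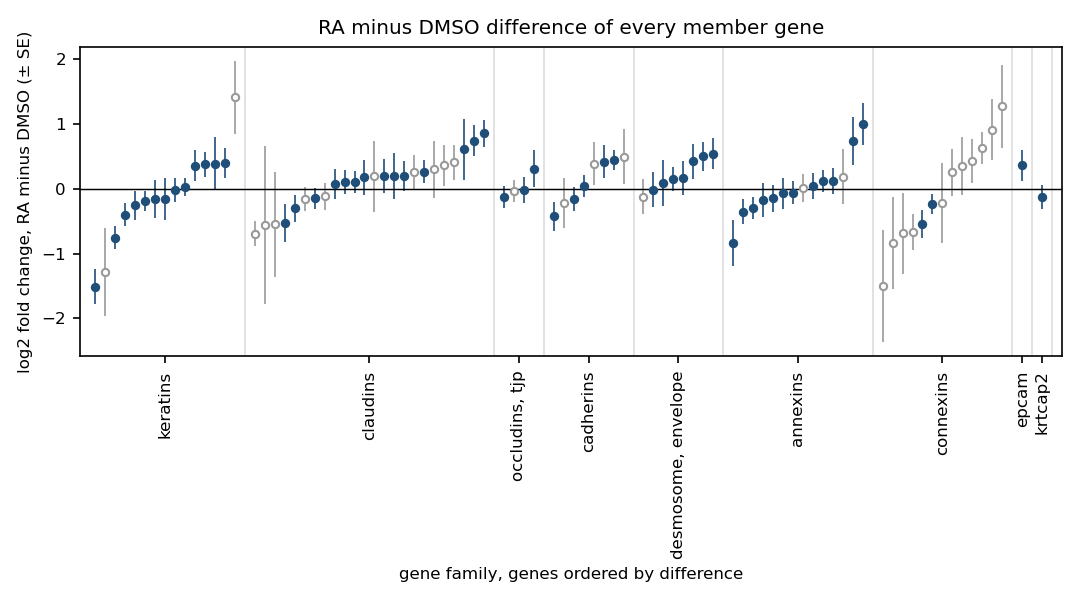
The log2 fold change, RA minus DMSO, of each of the 88 genes with its limma standard error, grouped by family and ordered within it. Filled points are the 58 genes above background on all arrays of at least 1 group, and hollow grey points are the other 30, whose differences rest on signals at or near background. The filled points run from -1.51 (krt1-19d) to 1.00 (anxa6), and none passed 10% FDR.

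Of the 88 genes, 55 were above background on all 6 arrays and 23 were at background on all 6. Of the keratins 13 of 15 were above background on all arrays of at least 1 group, of the annexins 12 of 14, but of the connexins 2 of 13. The 5 genes with all RA pools higher were cldn11a, cldn3c, cdh4, pkp1b and anxa6, and the 8 with all RA pools lower were krt1-19d, krt17, krt18b, krt5, anxa13l, anxa5b, gja1b and gjc4b. Of these, krt1-19d counted as above background through its DMSO arrays alone. Groups were also separate in krt93, gja10b, gjb1a and cldna, but at background throughout, so no difference was read from them. Over the 58 genes the standard error of the log2 fold change had a median of 0.22.

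Keratins build the intermediate filaments of epithelia, each filament pairing a type I with a type II keratin. The largest difference above background was in krt1-19d, a type I keratin, which still missed the threshold. Its signals, always in the order of clutches 1, 3 and 4, were 32.2, 28.0 and 38.2 in DMSO and 16.3, 9.79 and 9.33 in RA. The groups did not overlap, and the RA pools of clutches 3 and 4 were at background. The mean was 32.8 ± 5.13 (SD, n = 3) in DMSO and 11.8 ± 3.89 in RA, a log2 fold change of -1.51 (SE 0.27, adjusted p = 0.12). With signals under the background raised to it, the log2 fold change was -1.20. A second probe set of the gene was at background on all arrays but the DMSO array of clutch 4, so it could not check the difference. The gene passed 10% FDR in some other fits. Among them was the fit over probe sets above background only (adjusted p = 0.021), which it entered through its DMSO arrays alone. That value therefore adds no support. With the clutch as a block the gene did not pass (adjusted p = 0.25). Leaving out 1 array at a time gave adjusted p-values of 0.096 to 0.38, the lowest without the RA pool of clutch 1.

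The other keratin near the top was krt18b, one of the zebrafish copies of keratin 18, a type I keratin of simple epithelia. Its signals were 175, 143 and 138 in DMSO and 86.4, 81.9 and 102 in RA. Every RA pool was below every DMSO pool, and the difference within clutches 1, 3 and 4 was -1.02, -0.80 and -0.44 on the log2 scale. The mean went from 152 ± 20.1 (SD, n = 3) to 89.9 ± 10.3, or 1.68-fold lower in RA (log2 fold change -0.75, 95% interval -1.19 to -0.31, adjusted p = 0.25). Among probe sets above background alone the adjusted p was 0.091, and with the clutch as a block it was 0.39. The other copy on the array, krt18a.1, leaned the opposite way. Its signals were 325, 414 and 387 in DMSO and 395, 472 and 633 in RA, higher in RA within all 3 clutches but with overlapping groups (log2 fold change 0.39, adjusted p = 0.74). The difference between the copies was not tested. Keratin 8, the type II partner of keratin 18 in simple epithelia, had a difference near 0, with krt8 signals of 272, 356 and 308 in DMSO and 289.9, 286 and 350.4 in RA and a log2 fold change of -0.013 (95% interval -0.46 to 0.43).

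The epidermal keratins krt4 and krt5 had small differences. For krt4, a type II keratin of the outer epidermis, the signals were 1317, 1282 and 1327 in DMSO and 1312, 1326 and 1359 in RA. These 6 values lay within a narrow band, and the log2 fold change was 0.026 (95% interval -0.32 to 0.38). For krt5, also a type II keratin, they were 1168, 1134 and 1089 in DMSO and 1047, 968 and 959.6 in RA. The groups did not overlap, but the difference was small (log2 fold change -0.19, 95% interval -0.55 to 0.17, adjusted p = 0.83). For krt17, a type I keratin, they were 368, 399 and 349 in DMSO and 276, 245 and 329.7 in RA. Here too each RA pool was below each DMSO pool, with differences of -0.41, -0.71 and -0.080 on the log2 scale within clutches 1, 3 and 4 (log2 fold change -0.40, adjusted p = 0.62). Of the 13 keratins above background in a group, 4 had RA pools wholly below the DMSO pools (krt1-19d, krt17, krt18b and krt5) and 0 wholly above, beside 11.1% and 7.68% of all such genes. Of these 4, krt1-19d was among the 13 through its DMSO arrays alone, so counting it adds no support.

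The brightest keratin probe sets were those of krt1-19e and krt91. A krt1-19e promoter is used to label basal epidermal cells in zebrafish. Its signals were 2765, 1898 and 1708 in DMSO and 1667, 1898 and 1658 in RA, with the DMSO pool of clutch 1 far above the others and the rest overlapping (log2 fold change -0.26, or -0.051 without that pool, adjusted p = 0.86). Those of krt91 were 1757, 1439 and 1384 in DMSO and 2041, 1696 and 2209 in RA, higher in RA within each clutch, with the DMSO pool of clutch 1 above the RA pool of clutch 3 (log2 fold change 0.38, adjusted p = 0.67). The probe set may also bind related sequences, as its design name states, and a second krt91 probe set without that mark gave 0.37. For krt97 the DMSO pool of clutch 1 and the RA pool of clutch 4 were the high ones, at 1669.5 and 1554, and the other pools ran from 803 to 1115. Over the 15 keratins the median log2 fold change was -0.15, which became 0.029 without the RA pool of clutch 1 and -0.012 without the DMSO pool of clutch 3.

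**Figure D2:**
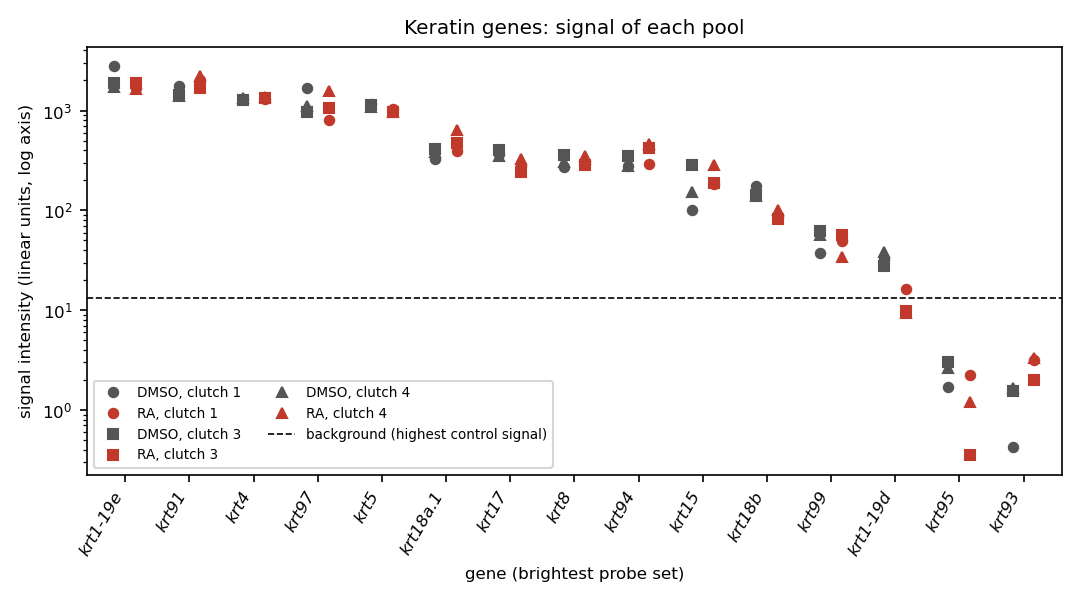
Signal of each pool (log axis) for the 15 keratin genes, ordered by their DMSO mean, with DMSO pools in grey, RA pools in red and the marker giving the clutch. The dashed line is the background of 13.2. The grey and red points separate for krt1-19d, krt17, krt18b and krt5 and, under the background line, for krt93. They lie on each other for krt4 and krt8.

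Several of these keratins are neighbours in the RefSeq gene order, and the differences varied within each cluster. The genes krt1-19d and krt1-19e are side by side, as are krt17 and krt91, with 3 genes between the pairs. Their log2 fold changes were -1.51, -0.26, -0.40 and 0.38. A second cluster holds krt5, krt8 and krt18a.1 in a row, at -0.19, -0.013 and 0.39. Elsewhere, krt4 and krt18b have 1 gene between them, at 0.026 and -0.75. In a further cluster krt94 and krt15, with 1 gene between them, were at 0.35 and 0.38. Within clutch 3 they went opposite ways, at 0.27 and -0.60. In the same cluster krt99, next to krt15, was at -0.16 and krt93 was at background. None of these differences between neighbours was tested, and similar keratin copies may share hybridizing RNA.

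**Figure D3:**
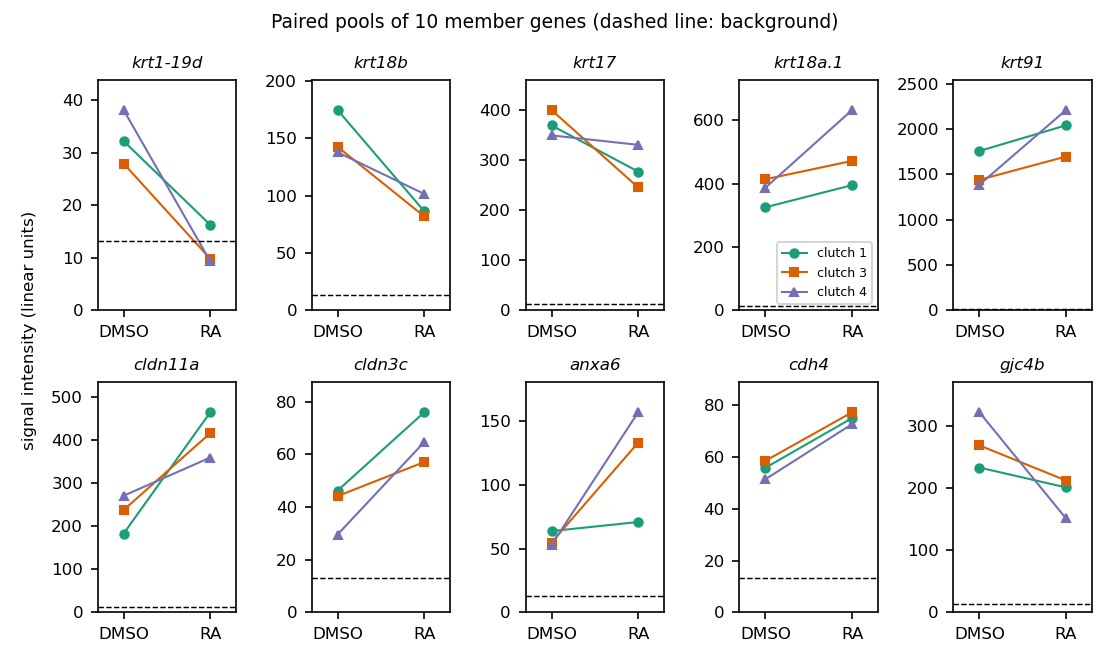
Signals of 10 genes in the DMSO and RA pools of each clutch (linear axes from 0), joined by clutch. The lines slope downward in all 3 clutches for krt1-19d, krt18b, krt17 and gjc4b and upward in all 3 for krt18a.1, krt91, cldn11a, cldn3c, anxa6 and cdh4. The dashed line is background.

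Of the 24 claudins, 14 were above background on all arrays of at least 1 group, and their median log2 fold change was 0.18. One of them, cldn5a, was above background on all RA arrays but on only 2 DMSO arrays. It was among the 14 through RA alone, so counting it adds no support. The largest difference was in cldn11a, a zebrafish copy of claudin 11, which in mammals seals myelin and the Sertoli cell barrier. Its signals were 183, 238 and 271 in DMSO and 464, 416 and 359 in RA. All RA pools were above all DMSO pools, and the clutch highest in DMSO was the lowest in RA. The mean was 230.4 ± 44.4 (SD, n = 3) in DMSO and 413 ± 52.6 in RA, 1.81-fold higher (log2 fold change 0.85, 95% interval 0.34 to 1.37, adjusted p = 0.27). Among probe sets above background only, the adjusted p was 0.093, and with a block for the clutch it was 0.43. Its copy cldn11b read 157, 97.0 and 73.9 in DMSO and 74.5, 73.8 and 67.6 in RA, lower in RA within each clutch but with the RA pool of clutch 1 above the DMSO pool of clutch 4 (log2 fold change -0.53, adjusted p = 0.72).

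The second claudin with separate groups above background was cldn3c. Its signals were 46.2, 44.2 and 29.6 in DMSO and 76.0, 57.1 and 64.6 in RA, so that the lowest RA pool stood above the highest DMSO pool (log2 fold change 0.74, standard error 0.24, adjusted p = 0.43). Its genomic neighbours on the array were cldnb, at 0.079, and cldn3d and cldnd, which were at background. For cldnb, a claudin of the skin and the lateral line in zebrafish, the signals were 60.3, 89.9 and 96.1 in DMSO and 91.3, 75.6 and 88.9 in RA, and the groups overlapped. A claudin of the brain and its vessels, cldn5a, was near background, at 6.74, 16.2 and 21.8 in DMSO and 15.6, 27.7 and 19.5 in RA. The groups overlapped again (log2 fold change 0.61, standard error 0.47), and the value was 0.29 with signals floored at background and 0.12 without the DMSO pool of clutch 1. The vascular endothelial marker kdrl, encoding a VEGF receptor, read 37.7, 48.7 and 40.5 in DMSO and 65.1, 66.4 and 62.8 in RA and plvapb read 40.3, 21.2 and 18.4 in DMSO and 76.7, 51.9 and 46.6 in RA. Of the 4 vascular markers measured, kdrl, tie1 and plvapb had all RA pools above all DMSO pools and tek had them below, but tie1 was at background on all arrays and tek on all except the DMSO array of clutch 1, and none passed the test (adjusted p = 0.32 to 0.63). The summed vascular signal was 76.1 to 94.6 in DMSO and 127 to 159 in RA, and its part in the claudin values was not tested.

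The groups overlapped in the brightest claudins, cldng and cldni, and in the occludins. The brightest, cldng, gave 3444, 2653 and 2759 in DMSO and 3089, 3061 and 3331 in RA, within which the groups overlapped (log2 fold change 0.11, 95% interval -0.31 to 0.53). The other 2 cldng probe sets above background gave -0.041 and -0.0013, and a further one was at background on all 6 arrays. The next, cldni, a claudin of the larval skin, gave 387, 381 and 329 in DMSO and 342, 333 and 312 in RA (log2 fold change -0.15, 95% interval -0.53 to 0.23). Inside the tight junction, oclna, a copy of occludin, gave 87.8, 115 and 87.7 in DMSO and 102, 103 and 80.1 in RA and a log2 fold change of -0.020. The other copy, oclnb, read 22.1, 28.3 and 16.9 in DMSO and 36.9, 22.2 and 24.4 in RA. Its groups overlapped (log2 fold change 0.31, standard error 0.29, 95% interval -0.39 to 1.00, and 0.085 to 0.49 with 1 array left out). The scaffold gene tjp2b gave 129, 114 and 145 in DMSO and 116, 116 and 120.2 in RA, with the RA pools close together and inside the DMSO range (log2 fold change -0.13), and a second probe set of the same gene gave 0.43. For tjp3 all signals were at background.

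**Figure D4:**
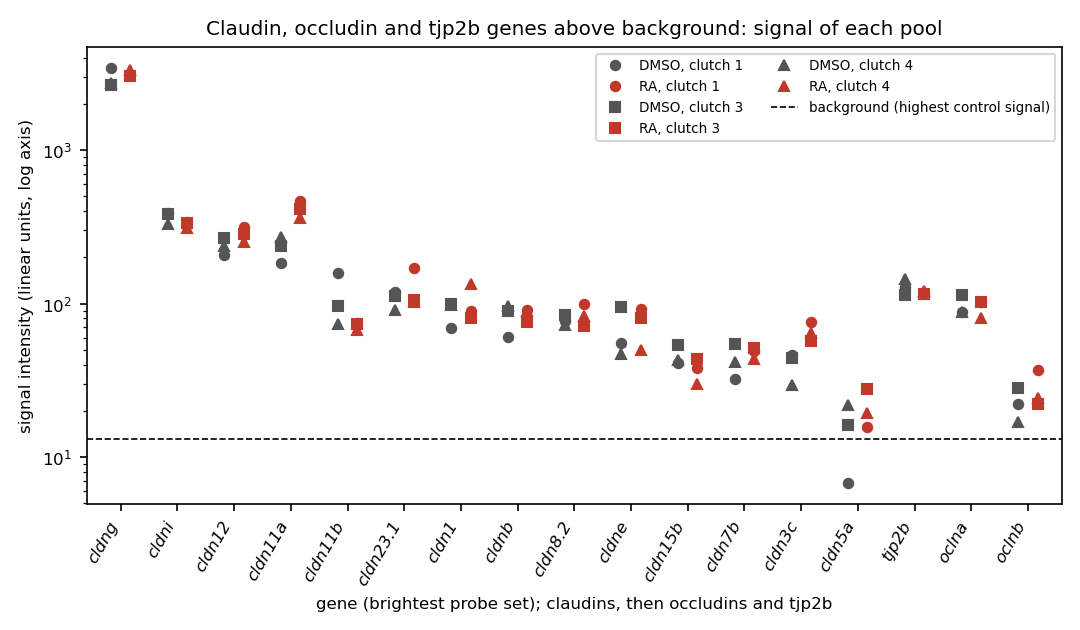
Signal of each pool (log axis) for the 14 claudins above background on all arrays of at least 1 group, ordered by DMSO mean, followed by oclna, oclnb and tjp2b. Grey points are DMSO pools, red points RA pools and markers the clutch. The red points are wholly above the grey for cldn11a and cldn3c.

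Of the 8 cadherins, cdh4 alone had groups that did not overlap. It encodes R-cadherin, named for the retina, where it takes part in the growth of ganglion cell axons. Its signals were 55.8, 58.5 and 51.4 in DMSO and 74.9, 77.2 and 72.6 in RA. Each RA pool was above its DMSO pool, by 0.43, 0.40 and 0.50 on the log2 scale for clutches 1, 3 and 4. The mean was 55.2 ± 3.58 (SD, n = 3) in DMSO and 74.9 ± 2.28 in RA, 1.36-fold higher (log2 fold change 0.44, 95% interval 0.076 to 0.81, adjusted p = 0.47). N-cadherin, cdh2, which retinal lamination requires in zebrafish, read 799, 640.2 and 773 in DMSO and 758, 722 and 787 in RA, with overlapping groups (log2 fold change 0.041, 95% interval -0.36 to 0.44). E-cadherin, cdh1, the cadherin of epithelia, read 169.7, 275 and 180.3 in DMSO and 327, 278 and 222 in RA. It was higher in RA in each clutch, by 0.95, 0.015 and 0.30 on the log2 scale, so that clutch 1 carried most of the difference (log2 fold change 0.42, adjusted p = 0.77). The mesenchymal cadherin cdh11 read 183, 251 and 277 in DMSO and 152, 182 and 189.9 in RA, lower within each clutch, and its 2 probe sets gave log2 fold changes of -0.43 and -0.54 (adjusted p = 0.68 and 0.65). M-cadherin of muscle, cdh15, and cdh17 were at background on all 6 arrays. Epcam, an adhesion protein of simple epithelia and basal epidermis, read 145, 248 and 168 in DMSO and 246, 214 and 243 in RA, with clutch 3 going the other way from clutches 1 and 4 (log2 fold change 0.37, standard error 0.24, adjusted p = 0.78). Without the DMSO pool of clutch 1 it was 0.20, and without that of clutch 3 it was 0.59.

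Of the 8 genes of desmosomes and the cornified envelope, 7 were above background on all arrays of at least 1 group. Their log2 fold changes ran from -0.012 for pkp3a to 0.54 for pkp1b, with none past the threshold. One of the 7, dspa, was above background on all RA arrays but on only 1 DMSO array. It was among them through RA alone, so counting it adds no support. Plakophilin 1, which binds desmoplakin in the desmosomal plaque, was read by pkp1b at 57.3, 91.0 and 58.2 in DMSO and 91.6, 113 and 91.1 in RA. The groups were separate by less than 1 unit of signal (adjusted p = 0.60). Desmoplakin, dspa, which ties keratin filaments to the junction, was close to background, at 9.55, 14.9 and 12.2 in DMSO and 14.3, 19.0 and 18.02 in RA (log2 fold change 0.50, adjusted p = 0.62). With its signals floored at background the log2 fold change was 0.31. Envoplakin and periplakin form the scaffold of the cornified envelope in mammalian skin. Of these, evplb read 88.4, 119 and 81.2 in DMSO and 142, 157 and 92.0 in RA and ppl read 96.6, 204 and 114 in DMSO and 141, 186 and 103 in RA, both with overlapping groups. The desmocollin dsc2l read 83.0, 134 and 82.0 in DMSO and 125, 114 and 89.7 in RA.

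Pools of 1 treatment stood apart from each other in several of these genes, often with the DMSO pool of clutch 3 and the RA pools of clutches 1 and 3 highest. The same 3 pools were highest for tp63, the transcription factor of stratified epithelia, which read 71.3, 108 and 56.1 in DMSO and 107, 93.4 and 58.9 in RA, and for grhl1, a grainyhead factor of epidermis, which read 29.7, 46.8 and 24.1 in DMSO and 46.8, 44.7 and 22.3 in RA. They were not those of agr2, the other skin marker measured, which read 60.02, 92.1 and 51.6 in DMSO and 80.8, 121 and 83.7 in RA and was highest in the DMSO pool of clutch 3 and the RA pools of clutches 3 and 4. Among other epithelial regulators measured, esrp2, spint1a, spint1b, spint2 and perp had the same 3 highest pools as tp63. The genes esrp1, st14a, elf3 and ehf did not, and klf4 was at background on all 6 arrays. Among the genes of desmosomes and the envelope above background, 5 of 7 (dsc2l, evplb, pkp3a, pkp4 and ppl) had these 3 highest pools. Over all families it was 12 of 58 genes (20.7%, against 9.66% of 6677 genes on the array), also including cdh1, cldn7b, cldn12, cldne, oclna, anxa13 and anxa1b, and 0 of 13 keratins. This order was noticed in the values first, so it is given without a test. The summed signal of the 3 measured skin markers outside the set (tp63, grhl1 and agr2) was 161, 247 and 132 in DMSO and 234, 259 and 165 in RA, and its part in these values was not tested. The family's median difference was 0.58 in clutch 1, 0.0028 in clutch 3 and 0.075 in clutch 4, and without both pools of clutch 1 it went from 0.16 to -0.010.

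**Figure D5:**
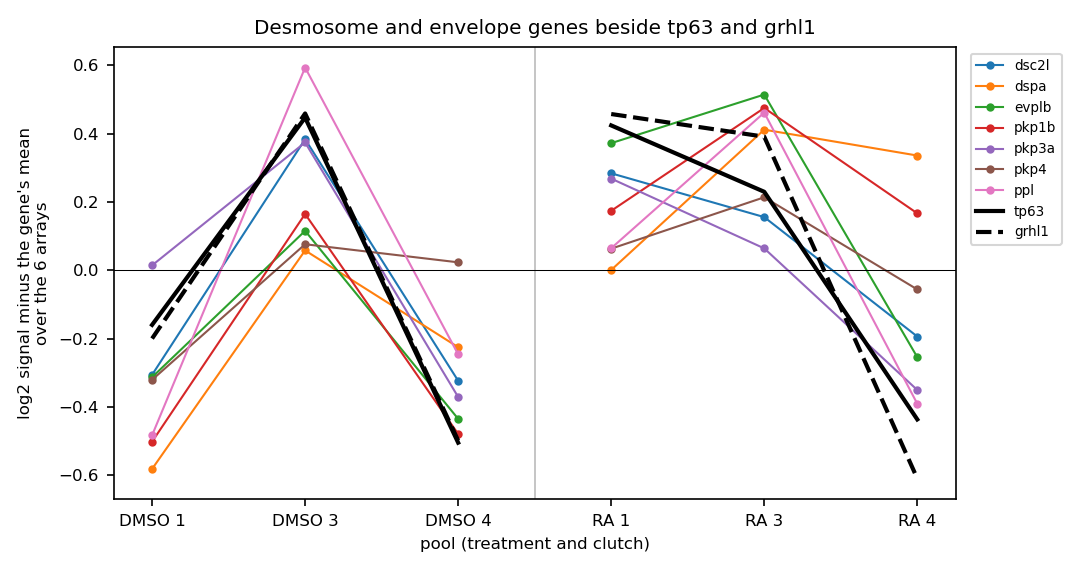
Log2 signal of the 7 desmosome and envelope genes above background, each minus its own mean over the 6 arrays, in every pool, with tp63 and grhl1 as black lines. Lines join pools of a treatment for tracing only. The DMSO pool of clutch 3 and the RA pools of clutches 1 and 3 are above 0 for tp63, for grhl1 and for most of the genes.

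Annexins gave both the highest and the lowest log2 fold change among members above background on all 6 arrays. The highest was anxa6, a large annexin of cell membranes and endosomes, with signals of 63.7, 54.7 and 52.8 in DMSO and 70.8, 133 and 157 in RA. All RA pools lay above all DMSO pools, but the RA pool of clutch 1 was about level with its DMSO pool and the other RA pools stood far above. The mean was 57.1 ± 5.79 (SD, n = 3) in DMSO and 120.1 ± 44.3 in RA (log2 fold change 1.00, 95% interval 0.22 to 1.78, adjusted p = 0.43). The lowest was anxa1c, a copy of annexin A1, with signals of 594, 452 and 247 in DMSO and 210.0, 199 and 281 in RA. Within clutch 4 the RA pool was the higher one, and the groups overlapped (log2 fold change -0.83, standard error 0.35, adjusted p = 0.59). Its genomic neighbour anxa1b read 99.0, 233 and 222 in DMSO and 297, 344 and 231 in RA, with the DMSO pool of clutch 1 lowest (log2 fold change 0.74, adjusted p = 0.68). Without that pool the log2 fold change was 0.34. The difference between these copies was not tested.

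The other annexins lay closer to 0. The brightest, anxa1a, read 858, 1091 and 890.0 in DMSO and 788, 751 and 1213 in RA, so that the RA pool of clutch 4 was the highest of the 6 (log2 fold change -0.072). Annexin A2, anxa2a, had the same high pool, at 310.3, 405 and 312 in DMSO and 264, 246 and 424 in RA (log2 fold change -0.17). Its binding partner s100a10b read 322, 490.3 and 463 in DMSO and 307, 332 and 373 in RA (log2 fold change -0.31, adjusted p = 0.80). The annexin used as a probe of dying cells, anxa5b, read 61.8, 83.5 and 59.5 in DMSO and 53.2, 53.5 and 51.6 in RA, and anxa13l read 58.6, 74.5 and 69.2 in DMSO and 49.6, 56.9 and 57.4 in RA. Both had RA pools wholly below the DMSO pools (log2 fold changes -0.35 and -0.30, adjusted p = 0.70 and 0.74). The 2 other anxa5b probe sets above background gave -0.014 and -0.10, and a further one was at background on all 6 arrays. Over the 14 annexins the median was -0.022.

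Most connexins were at background. Of 13 genes, 10 were at background on all 6 arrays, among them the lens fibre connexins gja3 and gja8b and the horizontal cell connexins gja9a and gja10b. The lens crystallin crybb1 read 3224 to 4350 on the same arrays. A signal at background cannot show whether such a gene was expressed. The brightest connexin was gja1b, connexin 43, the most widespread gap junction protein of vertebrates, at 1527, 1288 and 1384 in DMSO and 1205, 1194 and 1150.5 in RA. The groups did not overlap (log2 fold change -0.24, 95% interval -0.61 to 0.14, adjusted p = 0.78). The other one above background was gjc4b, at 233, 269 and 322 in DMSO and 201, 212 and 151 in RA. It was lower in each clutch, with differences of -0.21, -0.34 and -1.09 on the log2 scale, and its mean went from 275 ± 44.8 (SD, n = 3) to 188 ± 32.5 (log2 fold change -0.55, 95% interval -1.07 to -0.024, adjusted p = 0.55). The neuronal connexin gjd2b was above background on 1 DMSO array and 2 RA arrays, at 4.39, 5.62 and 16.5 in DMSO and 27.0, 8.86 and 24.0 in RA, too close to background for a fold.

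Where a gene had 2 or more probe sets above background on all arrays of a group, these could be set against each other. There were 10 such genes, and in 7 all probe sets leaned the same way. The 3 exceptions were cldng and tjp2b, given above, and krt1-19e, whose second probe set gave 0.075 beside the -0.26 of the brightest. Only signs were compared, without the share over the whole array, so the count of 7 adds no support to the values.

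The genes that work with these proteins were read the same way. Of 91 partner genes listed by role, 44 were measured and 35 were above background on all arrays of at least 1 group. None passed 10% FDR in either direction, and the median log2 fold change over the 44 was 0.084. All RA pools lay above all DMSO pools in 6 of the 35 and below in 0 of them, beside 7.68% and 11.1% of all genes above background. Of these 6, 3 were other intermediate filament genes. Vimentin, vim, the filament of glia and mesenchyme, read 109, 141 and 129 in DMSO and 215, 287 and 336 in RA (log2 fold change 1.13, SE 0.23, adjusted p = 0.15). The glial filament gene gfap read 16.2, 39.9 and 28.8 in DMSO and 52.2, 75.3 and 65.2 in RA (log2 fold change 1.26, adjusted p = 0.35). Peripherin, prph, of peripheral neurons, read 13.7, 12.7 and 8.41 in DMSO and 23.4, 15.2 and 24.1 in RA, near background. It was above background on all RA arrays but on only 1 DMSO array, so it was among the 35 through RA alone. The other 3 were the pannexin panx1b, at 71.0, 90.7 and 75.3 in DMSO and 111, 119.7 and 99.7 in RA, the mesenchymal transcription factor snai2, at 111, 150.4 and 134 in DMSO and 201, 157 and 165 in RA, and the polarity gene llgl2, at 259.6, 283 and 228 in DMSO and 308, 344 and 291 in RA. Catenins, which link cadherins to actin, did not separate, with ctnnb1 at 283, 337 and 292 in DMSO and 351, 341 and 242 in RA and the desmosomal jupa at 391, 422 and 307 in DMSO and 447, 376 and 317 in RA.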

How the data were processed

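The 6 arrays (3 DMSO, 3 RA, 75 hpf eyes) were hybridized with amplified RNA, 80 ng per pool entering quality control and amplification. The authors deposited linear signal intensities, in which every array has a common mean once 2% of probe sets at either end are trimmed. These are not the RMA values of the paper's methods, and how they were made is not given in the sources used here. Log2 of the deposited intensities was taken and tested over 15555 probe sets (62 control probe sets left out) with lmFit and eBayes of limma 3.58.1 in R 4.3.3, two-sided, with Benjamini-Hochberg adjustment and 10% FDR. The methods' SAM was replaced by limma, which gives standard errors. The script was tested on simulated data.

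The member genes, families, marker lists and partner list were chosen with earlier results of these data known. Named genes were the 3 largest differences and 2 brightest members of each family above background, any that passed, and members with a well-known role. Others, including krt91's neighbours, gene copies, krt97, gjd2b, ppl, dsc2l and members with separate groups, were added after their values were seen. The methods state that each clutch was split between treatments. Arrays with the same number in their titles were taken as a pair. Over 10503 probe sets, deviations from the group mean correlated between DMSO and RA at 0.16 (clutch 1), 0.40 (clutch 3) and 0.27 (clutch 4). Between unlike numbers the correlations were -0.33 to 0.037. Deviations within a group cancel out, which pushes these values apart, so they do not establish the pairing by themselves. The fit was made without the clutch and repeated with it. All 88 symbols were found in RefSeq (assembly GRCz12tu), used for gene order only. Of probe sets matching the rule, 1 with several symbols was left out. Alternatives covered normalization, array weights, variance trend, filters, an offset, other FDRs, the choice of probe set and leaving out arrays or clutches. A floor at background was chosen after the data were examined. The number of arrays limits the precision.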

Additional observations from a re-analysis of the deposited data

How the results depend on the processing

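With 3 pools a group, differences about the size of the median standard error, 0.22, could not be resolved. Larger ones also missed the threshold in the main fit, such as 0.85 for cldn11a and 1.00 for anxa6. Of the 88 genes, 30 had signals too near background for a fold. The counts of members called stayed at 0 higher and 0 lower with median centring, quantile normalization, a filter on a mean log2 signal above 5, an FDR of 5%, every probe set used and a floor at background. They were 1 higher (cldn11a) and 3 lower (krt1-19d, krt18b and cldna, the last at background) with array weights, where 593 probe sets passed in all against 131. They were 1 higher (cldn11a) and 1 lower (krt1-19d) with a variance trend, and 0 higher and 2 lower (krt1-19d and krt18b) with an offset of 16. With only probe sets above background they were 1 higher (cldn11a) and 2 lower (krt18b, and krt1-19d, which entered through its DMSO arrays alone). They were 0 higher and 1 lower (krt1-19d) at an FDR of 20%. Leaving out arrays or clutches gave 0 higher and 0 to 1 lower, the 1 being krt1-19d without the RA pool of clutch 1. With the clutch as a replicate block, 0 members were called higher and 0 lower, and 45 probe sets passed in all. The median of the connexins, 10 of 13 of which were at background on all 6 arrays, moved from -0.22 to 0.48 with array weights. That of the cadherins moved from 0.21 to 0.041 with either filter, 0.027 with the offset and 0.021 with the floor, and that of the keratins from -0.15 to -0.013 with the floor. That of the occludin and tjp genes moved from -0.029 to 0.065 when all probe sets of a gene were averaged. Leaving out arrays or clutches gave medians of -0.16 to 0.029 for the keratins, 0.035 to 0.21 for the cadherins and -0.089 to 0.063 for the occludin and tjp genes. Signs turned only in named genes with main log2 fold changes from -0.17 (anxa2a) to 0.079 (cldnb), though not in every gene of that range. With median centring pkp3a was at 0.0044 and krt8 at 0.0029, and with array weights cldnb was at -0.11. Leaving out arrays or clutches gave log2 fold changes of -0.33 to 0.16 for anxa1a, -0.48 to 0.10 for anxa2a, -0.058 to 0.10 for cdh2, -0.18 to 0.24 for cldnb, -0.11 to 0.14 for krt8, -0.14 to 0.11 for oclna and -0.20 to 0.17 for pkp3a. The causes were not tested.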
